A study of Mus musculus with 6 samples.

Results

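IGHD1-1, also known as DFL16.1, is a D gene of the mouse immunoglobulin heavy chain locus. Its heavy chain clonotypes were examined in naïve follicular (FO) B cells from 2 mice, an iB-μMT mouse and a C57BL/6 (B6) mouse. Each clonotype stands for a different nucleotide sequence of CDR3, the loop of the heavy chain variable domain in which V, D and J segments meet. The clonotypes whose best D hit was IGHD1-1 were taken, whatever allele was named. They numbered 1509 (iB-μMT) and 2030 (B6), 3539 of the 14575 heavy chain clonotypes in all.

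The series holds 6 libraries, of which the 2 heavy chain libraries, 1 per mouse, carry D genes. The iB-μMT mouse was a B cell-deficient μMT recipient, 8 to 10 weeks old by the study's methods, that was sublethally irradiated and then given hematopoietic progenitor cells (iHPCs). The iHPCs were derived from a GFP-marked embryonic stem cell line of C57BL/6 background, in which a doxycycline-inducible cassette of Runx1, Hoxa9 and Lhx2 sits in the Rosa26 locus. The recipient drank water with doxycycline and was analysed 4 weeks after transplantation. The B6 mouse was a control whose age is not given in the sources used here. The C57BL/6 background is named for both the donor cells and the control. The cells were sorted from spleen by surface markers of naïve FO B cells, among them IgD and IgM, and GFP was not part of the gate that the methods describe. The only label of cell type that the clonotype tables can be checked against is the C gene. It was IGHM in 1484 of 1485 (iB-μMT) and 1995 of 1996 (B6) IGHD1-1 clonotypes with a C gene, whereas the labels call the library IgG. The remaining clonotypes were 1 of IGHG2C and 1 of IGHG1. The libraries held 909806 and 1383617 reads. Because each group is 1 library, no p-value is given, and every interval below is a 95% interval of counting error over clonotypes that compares these libraries and not the conditions.

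In a developing B cell, the RAG recombinase first joins a D gene to a J gene and then a V gene to the DJ join. Exonucleases trim the ends of the segments, and terminal deoxynucleotidyl transferase (TdT) adds untemplated N nucleotides between them. TdT is low in fetal B lymphopoiesis, where joins often form at short stretches of bases that both ends share. A D gene can be read in any of its frames, and mouse B cells mostly use the frame rich in tyrosine, glycine and serine. IGHD1-1 is among the longest mouse D genes and lies toward the V side of the D cluster.

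The germline segments are shown because every trimming, insertion and frame below is read against them. IGHD1-1 lies at chr12:113482170-113482192 of the assembly GRCm38.p6 in the RefSeq annotation, on the minus strand. It is a D segment of 23 bases that becomes part of the variable exon after joining. RefSeq lists 20 D segments, annotated pseudogenes included, and 2 of them, IGHD3-1 and the pseudogene IGHD5-1, lie farther from the J genes, so IGHD1-1, 52.3 kb from IGHJ1, is distal without being the outermost. The D sequence was rebuilt from the alignments in the clonotype tables that had no mismatch or gap, with 225 to 3045 clonotypes at each base. Alignments with a mismatch or gap, 102 (iB-μMT) and 165 (B6) IGHD1-1 clonotypes, were left out. The lack of disagreement at any base is therefore no check of the sequence. The 4 J genes are given from their first base to the tryptophan codon that ends CDR3.
IGHD1-1: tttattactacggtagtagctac
IGHJ1: ctactggtacttcgatgtctgg
IGHJ2: actactttgactactgg
IGHJ3: cctggtttgcttactgg
IGHJ4: attactatgctatggactactgg
In amino acids, the 3 frames of germline IGHD1-1 read YYYGSSY, FITTVVA and LLLR**L, where each asterisk is a stop codon.

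IGHD1-1 was the most frequent D gene in both mice, and its share was lower in the iB-μMT repertoire. Of the clonotypes with a D gene, it was the best hit of 22.2% of 6787 in the iB-μMT repertoire (interval 21.3 to 23.2) and of 34.1% of 5948 in the B6 repertoire (32.9 to 35.3). The difference was -11.9 percentage points (-13.5 to -10.3), a ratio of 0.651 (0.615 to 0.690). By reads, the shares were 20.7% and 33.0%. Of the 13 D genes that had 20 or more clonotypes per library, 0 differed by more than 2-fold in either direction, which is 0.0% in each. The intervals of the difference lay below 0 for 4 of these D genes, above 0 for 3, and included 0 for 6. Among the D genes that were higher in the iB-μMT repertoire, IGHD4-1 (DQ52), the D gene nearest to the J genes, took 18.7% against 9.77%, IGHD2-3 took 16.1% against 11.3%, and IGHD2-8 took 8.16% against 5.35%. The 3 D genes whose ratio between the mice was nearest to that of IGHD1-1 were IGHD5-5 (0.720, 0.415 to 1.25), IGHD3-2 (0.757, 0.641 to 0.894) and IGHD5-7 (0.554, 0.424 to 0.724). IGHD5-5 had only 23 and 28 clonotypes, and its interval included a ratio of 1. IGHD3-1 and IGHD5-1, the D genes beyond IGHD1-1, had ratios of 0.802 (0.644 to 0.997) and 0.808 (0.544 to 1.20).

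**Figure D1:**
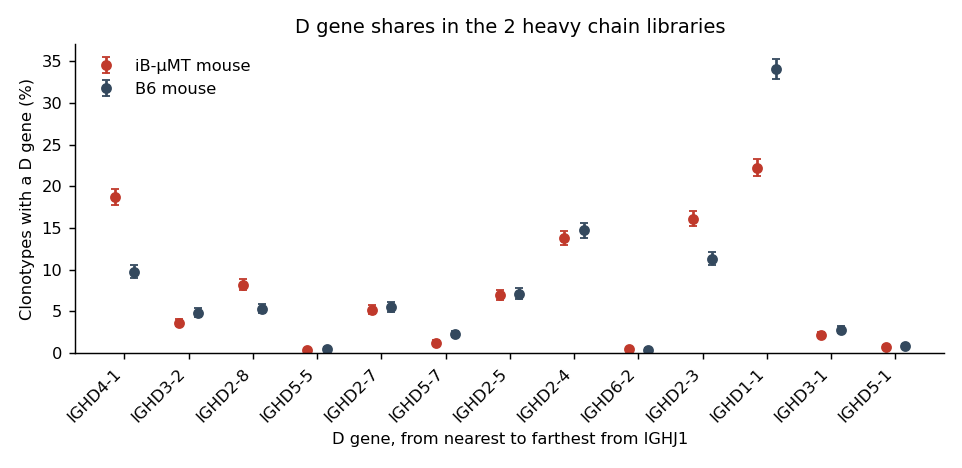
Share of each D gene among clonotypes with a D gene (vertical axis, %) for the 13 D genes that had 20 or more clonotypes per library, ordered by distance from IGHJ1. Points are the single library of each mouse and bars are 95% Wilson intervals; IGHD1-1 stands highest in both mice, at 22.2% in the iB-μMT repertoire and 34.1% in the B6 repertoire.

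The lower share was found with each of the V families compared and with each J gene. The share of IGHD1-1 was lower in the iB-μMT repertoire in all V families compared, those 11 that together with a D gene had enough clonotypes (20 or more per library), and the interval lay below 0 in 6. Among IGHV1 clonotypes, IGHD1-1 took 23.5% in the iB-μMT repertoire and 34.9% in the B6 repertoire, and among IGHV5 clonotypes it took 20.02% and 32.8%. Among IGHV2 clonotypes the shares were 22.4% and 27.5%, and the interval of their difference included 0 (-13.5 to 2.58). With IGHJ1 the share of IGHD1-1 was 30.6% against 48.8%, with IGHJ2 20.6% against 32.2%, with IGHJ3 18.3% against 28.9%, and with IGHJ4 23.1% against 32.1%, each with an interval below 0. Single V genes were less uniform. Of the 52 V genes with enough IGHD1-1 and D-bearing clonotypes, the share was lower in the iB-μMT repertoire in 46 and higher in 6. With each V family given the same weight in both mice, the difference was -11.0 percentage points.

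IGHD1-1 clonotypes were spread over many small clones rather than a few large ones. They held 162138 reads in the iB-μMT repertoire and 397159 in the B6 repertoire. The median clonotype had 86 reads (quartiles 42 and 153) in the iB-μMT repertoire and 175 reads (74 and 285) in the B6 repertoire, and clonotypes of other D genes had medians of 96 and 186. The libraries differ in depth. The ratio of the IGHD1-1 medians, iB-μMT over B6, was 0.491 as deposited and 0.729 at equal read numbers. The largest had 772 and 1558 reads, and the 10 largest together held 3.84% and 2.33% of the IGHD1-1 reads. Single-read clonotypes made up 5.17% and 4.58%. IGHD1-1 was joined to 86 V genes in 277 V-J pairs in the iB-μMT repertoire and to 96 V genes in 302 V-J pairs in the B6 repertoire.

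The V partners of IGHD1-1 differed strongly between the mice. The IGHV1 family, the large J558 family that reaches to the V end far from the D genes, took 31.5% of IGHD1-1 clonotypes in the iB-μMT repertoire and 61.1% in the B6 repertoire, a difference of -29.7 percentage points (-32.8 to -26.4). The IGHV2 and IGHV5 families, which lie nearest to the D genes, together took 37.0% against 13.99%, a difference of 22.99 points (20.1 to 25.8). IGHV5 alone took 28.7% against 12.1%, IGHV2 8.28% against 1.92%, IGHV9 8.68% against 5.37% and IGHV14 5.57% against 3.94%. Clonotypes of other D genes showed differences of nearly the same size, -29.6 points for IGHV1 and 25.5 points for IGHV2 and IGHV5. The difference between the IGHD1-1 value and the value of other D genes was -2.53 points for IGHV2 and IGHV5, with an interval that included 0 (-5.89 to 0.82). For IGHV5 alone it was -3.34 points (-6.49 to -0.19).

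**Figure D2:**
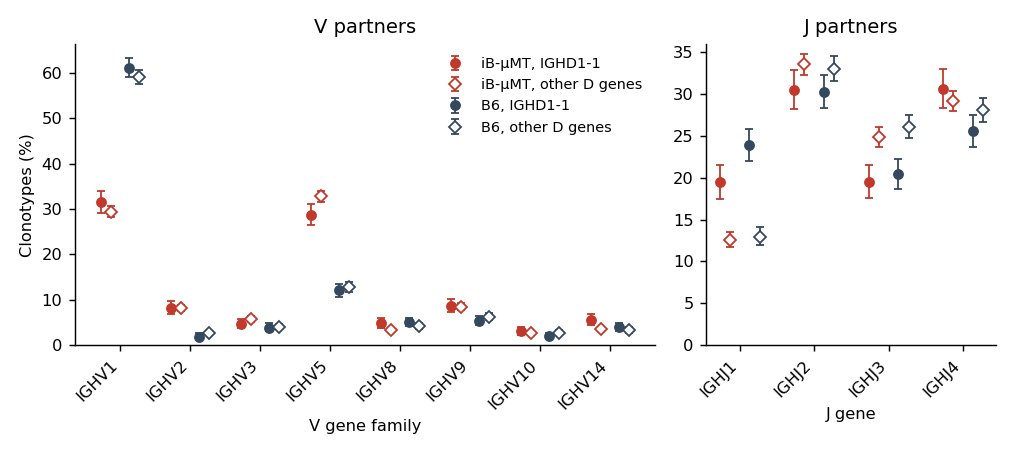
Share of V families (left, the 8 largest) and of J genes (right) in % of clonotypes, for IGHD1-1 (filled circles) and for all other D genes together (open diamonds), with 95% Wilson intervals, 1 library per mouse. IGHV1 and IGHV5 separate the mice for both kinds of D gene, whereas IGHJ1 is higher with IGHD1-1 than with other D genes in both mice (19.4% against 12.6% and 23.8% against 12.97%).

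Single V genes were compared where they had at least 20 IGHD1-1 clonotypes in the 2 libraries together. Of 54 such genes, 12 were more than 2-fold higher in the iB-μMT repertoire and 14 more than 2-fold lower, against a background of 16.9% higher and 22.1% lower over the 77 V genes of all heavy chain clonotypes. The shares among IGHD1-1 clonotypes, 22.2% and 25.9%, were near that background, as was the share past 2-fold either way (48.1% against 39.0%). With other D genes, 0 of the 54 genes were past 2-fold in the opposite direction, 7 were higher in both comparisons and 10 were lower in both. The most frequent partner in the iB-μMT repertoire was IGHV5-4, with 153 clonotypes (10.1%) against 65 (3.202%) in the B6 repertoire. It was followed by IGHV5-6, with 110 (7.29%) against 39 (1.92%), and IGHV9-3, with 100 (6.63%) against 74 (3.65%). IGHV2-2 had 67 clonotypes (4.44%) against 16 (0.788%), a ratio of 5.63, and IGHV3-6 had 59 (3.91%) against 70 (3.45%). In the B6 repertoire the leading partner was IGHV1-64, with 107 clonotypes (5.27%) against 34 (2.25%) in the iB-μMT repertoire. IGHV1-26 had 97 (4.78%) against 29 (1.92%), and IGHV1-62-3 had 62 (3.05%) against 14 (0.928%). Over clonotypes with at least 10 deposited bases of D, 6 V genes in place of 12 were more than 2-fold higher.

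Among the J partners, IGHJ1 was more frequent with IGHD1-1 than with the pool of other D genes. IGHJ1, the J gene nearest to the D cluster, was used by 19.4% of IGHD1-1 clonotypes in the iB-μMT repertoire and 23.8% in the B6 repertoire, a difference of -4.43 points (-7.13 to -1.68). With other D genes it was used by 12.6% and 12.97%. The excess of IGHD1-1 over other D genes was thus 6.86 points in the iB-μMT repertoire and 10.9 points in the B6 repertoire, and these excesses differed by -4.02 points (-7.08 to -0.97). Single D genes varied around the pooled value. In the B6 repertoire IGHD5-5 (28.6% of 28 clonotypes) and IGHD6-2 (28% of 25) used IGHJ1 more often than IGHD1-1. In the iB-μMT repertoire they stood at 8.70% of 23 and 12.5% of 32 clonotypes, and IGHD1-1 had the highest share of the 13 D genes. IGHD3-1 used IGHJ1 in 18% (iB-μMT) and 19.5% (B6) of its clonotypes. IGHJ4, the J gene farthest from the D cluster, showed the reverse, with 30.6% against 25.5%, a difference of 5.10 points (2.11 to 8.11). IGHJ2 took 30.5% and 30.2%, and IGHJ3 took 19.5% and 20.4%, with differences whose intervals included 0 (-2.81 to 3.31 and -3.55 to 1.77). IGHJ3 was less frequent with IGHD1-1 than with other D genes, with differences of -5.36 and -5.64 points. Over clonotypes with at least 10 deposited bases of D, the difference of IGHJ2 between the mice was -3.87 points.

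Fewer nucleotides were inserted around IGHD1-1 in the iB-μMT repertoire, at both junctions. The inserted nucleotides, those left over between the reported segment ends, palindromic bases not counted, numbered 4.41 ± 3.05 (SD over 1509 clonotypes) in the iB-μMT repertoire and 6.45 ± 3.76 (SD over 2030) in the B6 repertoire. The difference was -2.04 (-2.26 to -1.81). At the V-D junction the means were 3.40 and 4.34, and at the D-J junction 1.02 and 2.11. A D-J junction without any insertion was found in 60.9% of IGHD1-1 clonotypes in the iB-μMT repertoire and in 34.9% in the B6 repertoire. A V-D junction without insertion was found in 10.8% and 7.19%. Neither junction had an insertion in 107 clonotypes (7.09%, 5.90 to 8.50) of the iB-μMT repertoire and 54 (2.66%, 2.04 to 3.45) of the B6 repertoire, a difference of 4.43 points. With the pool of other D genes the shares were 9.25% and 2.86%, a larger difference of 6.39 points, from which that of IGHD1-1 differed by -1.96 (-3.71 to -0.20). Single D genes varied widely around the pool. They ran from 6.25% against 4% (IGHD6-2) to 21.7% against 0% (IGHD5-5, with 23 and 28 clonotypes). IGHD4-1 stood near IGHD1-1, at 6.76% against 2.24%.

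Other D genes showed a like difference in total insertion, -2.02 nucleotides. The IGHD1-1 value differed from it by -0.01 (-0.28 to 0.26), and all 13 D genes had fewer inserted nucleotides in the iB-μMT repertoire, by 1.14 to 2.36. As deposited, IGHD1-1 differed from the pool of other D genes in where the nucleotides lay. Its V-D junction held more than that of other D genes (3.40 against 3.04 in the iB-μMT repertoire, 4.34 against 3.83 in the B6 repertoire), and its D-J junction held fewer (1.02 against 1.25, and 2.11 against 2.49). These counts use the deposited ends, in which a J palindrome of at least 5 bases is reported more often with IGHD1-1 (24.6% and 17.5%) than with other D genes (4.43% and 4.31%), and the part of that in the D-J values was not tested. On the re-read ends described below, the D-J junction of IGHD1-1 held 1.63 and 3.12. Other D genes were not re-read, so whether fewer would remain on that reading is not known. Within each J gene and each of 9 V families with enough clonotypes, the total was lower in the iB-μMT repertoire. The differences of single families ranged from -2.48 to -1.38, and the interval lay below 0 in all 9.

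**Figure D3:**
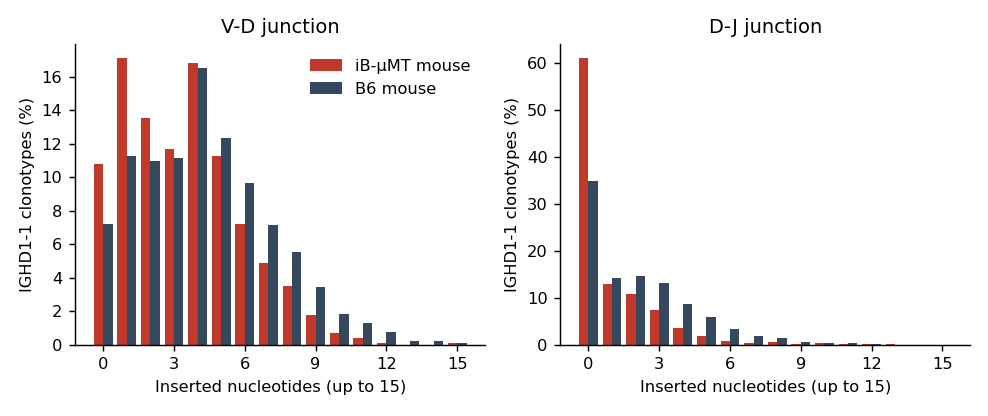
Share of IGHD1-1 clonotypes (vertical axis, %) by the number of inserted nucleotides at the V-D junction (left) and the D-J junction (right), shown up to 15, for the 1509 clonotypes of the iB-μMT repertoire and the 2030 of the B6 repertoire. At the D-J junction, 60.9% of the iB-μMT clonotypes and 34.9% of the B6 clonotypes stand at 0.

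The length of D that was left depended on how its end was read. As deposited, 12.9 ± 5.13 bases of IGHD1-1 were left in the iB-μMT repertoire and 12.3 ± 5.66 in the B6 repertoire (SD over clonotypes), a difference of 0.53 (0.17 to 0.88). The 3′ end was whole in 14.05% and 14.4%, and 6.17 and 6.30 bases were lost there. Some CDR3 bases fit both D and J, or both D and a palindrome of J. The reverse complement of the first 5 bases of IGHJ1, AGTAG, occurs in IGHD1-1 at bases 15 to 19, and that of IGHJ2, GTAGT, at bases 13 to 17, whereas those of IGHJ3 and IGHJ4 do not occur in it. A J palindrome of at least 5 bases was reported in 47.1% and 37.0% of IGHD1-1 clonotypes with IGHJ1 and in 39.3% and 23.1% of those with IGHJ2, in the iB-μMT and B6 mouse, respectively. It was reported in 2.72% and 4.59% with IGHJ3 and in 9.52% and 3.09% with IGHJ4.

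The D ends were also read again, by extending the D alignment in each direction for as long as CDR3 matched the germline, in the 1486 and 1982 clonotypes without a gap in the D alignment. This reading was chosen after seeing the data. The 3′ end moved in 49.5% and 25.3% of them, and in 49.4% and 25.1% the re-read D ran past the deposited start of J. On this reading 15.9 ± 5.12 bases of D were left in the iB-μMT repertoire and 13.9 ± 5.70 in the B6 repertoire, a difference of 2.00 (1.63 to 2.36). The 3′ end was whole in 607 clonotypes (40.8%) against 492 (24.8%), a difference of 16.02 points (12.9 to 19.2), and 3.19 against 4.75 bases were lost there. Inserted nucleotides at the D-J junction, with bases of a J palindrome beyond D now counted among them, numbered 1.63 and 3.12, a difference of -1.49 (-1.67 to -1.31). With IGHJ1 the share of whole 3′ ends in the iB-μMT repertoire went from 8.19% as deposited to 52.2%. It also went from 17.3% to 41.9% with IGHJ4, where long J palindromes were rare. Between the mice, the re-read share of whole 3′ ends differed by 21.7 points with IGHJ1, 17.6 with IGHJ2 and 18.0 with IGHJ4. With IGHJ3 it differed by 6.35 points, with an interval that included 0 (-0.29 to 13.1). The 5′ end lost 3.94 and 4.38 bases and was whole in 9.825% and 9.99%. Among the V families, the re-read length was greater in the iB-μMT repertoire in all 9, with an interval above 0 in 7. The whole of IGHD1-1 was kept in 36 clonotypes (2.42%) of the iB-μMT repertoire and 27 (1.36%) of the B6 repertoire.

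**Figure D4:**
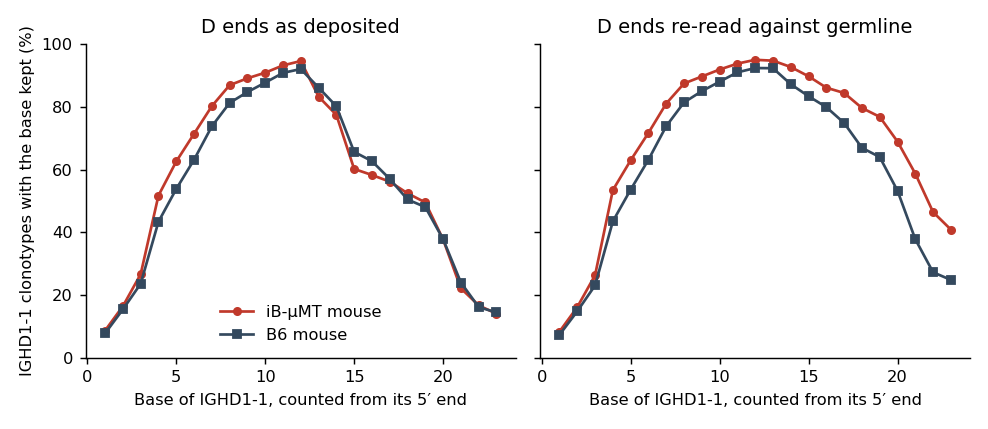
Share of IGHD1-1 clonotypes in which each base of the D gene was kept (vertical axis, %), by base counted from the 5′ end, with D ends as deposited (left) and re-read against the germline (right). As deposited, the iB-μMT line is higher up to base 12 and lower at bases 13 to 17 (60.2% against 65.6% at base 15). Beyond that the deposited lines lie close and cross again, with 14.05% and 14.4% at base 23. After re-reading they stand apart there (40.8% and 24.8%).

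The re-read D and J ends often shared bases that fit both germline segments. Such an overlap of at least 1 base was found in 517 of 1486 clonotypes (34.8%) in the iB-μMT repertoire and in 164 of 1982 (8.27%) in the B6 repertoire, a difference of 26.5 points (23.8 to 29.2). With IGHJ1 the shares were 48.8% against 11.7%, with IGHJ2 35.8% against 8.38%, with IGHJ3 23.02% against 5.67% and with IGHJ4 32.4% against 7.09%. An overlap of 4 bases was found in 9.96% against 2.83%. The overlap was computed for IGHD1-1 only. Because an overlapping base may come from either segment, the whole 3′ ends above include bases that J could have supplied.

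Joins with a D-J overlap are shown, since they make the overlap visible. They are the most frequent in the iB-μMT repertoire among joins that keep the whole 3′ end of D, and joins that end earlier in D were not ranked. Each runs from base 12 of IGHD1-1, and the capitals mark the last 12 bases of the D gene, followed by the rest of CDR3.
Join to IGHJ1: GGTAGTAGCTACtggtacttcgatgtctgg
First join to IGHJ2: GGTAGTAGCTACtactttgactactgg
Second join to IGHJ2: GGTAGTAGCTACtttgactactgg
Join to IGHJ3: GGTAGTAGCTACtggtttgcttactgg
Join to IGHJ4: GGTAGTAGCTACtatgctatggactactgg
The IGHJ1 join, in which D and J share 4 bases, made up 95 of 293 IGHD1-1 clonotypes with IGHJ1 (32.4%, 27.3 to 37.98) in the iB-μMT repertoire, with 50 different V genes. In the B6 repertoire it made up 35 of 484 (7.23%, 5.25 to 9.89), with 26 V genes. The first IGHJ2 join, with an overlap of 2 bases, made up 56 of 460 (12.2%) against 13 of 614 (2.12%). The second IGHJ2 join, with an overlap of 4 bases, made up 43 (9.35%) against 12 (1.95%). The IGHJ4 join, with an overlap of 3 bases, made up 68 of 462 (14.7%) against 8 of 518 (1.54%). The IGHJ3 join, with an overlap of 1 base, made up 18 of 294 (6.12%) against 8 of 414 (1.93%). Joins without overlap that keep the whole 3′ end of D went both ways. Some were lower in the iB-μMT repertoire, with 4 (0.866%) against 12 (2.32%) for IGHJ4 and 8 (2.72%) against 15 (3.62%) for IGHJ3. Others were higher in the iB-μMT repertoire, with 19 (4.11%) against 3 (0.579%) for IGHJ4 and 11 (3.74%) against 0 for IGHJ3. A join to IGHJ1 without overlap, GGTAGTAGCTACgggtacttcgatgtctgg, went the other way, with 3 clonotypes (1.02%) in the iB-μMT repertoire and 21 (4.34%) in the B6 repertoire.

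IGHD1-1 was read mostly in its tyrosine-rich frame, and more so in the iB-μMT repertoire. The frame YYYGSSY was used by 77.7% of clonotypes in the iB-μMT repertoire (75.5 to 79.8) and by 69.2% in the B6 repertoire (67.2 to 71.2), a difference of 8.50 points (5.54 to 11.4). The hydrophobic frame FITTVVA was used by 16.5% against 25.1%, and the frame LLLR**L, which holds stop codons, by 5.79% against 5.70%. Among clonotypes with a D-J overlap, YYYGSSY was used by 90.7% and 85.4%, a difference of 5.35 points (-0.04 to 11.9). Among those without an overlap it was used by 70.8% and 67.8%, a difference of 3.03 points (-0.59 to 6.56), so both intervals included 0. With IGHJ1 the shares of YYYGSSY were 79.2% against 70.7%, with IGHJ2 71.9% against 61.0% and with IGHJ4 76.9% against 65.2%. With IGHJ3 they were 86.6% and 84.7%, with an interval that included 0. A stop codon or an out-of-frame mark, counted together, was found in CDR3 in 16 IGHD1-1 clonotypes (1.06%) and 33 (1.63%), of which 8 and 11 were in the frame LLLR**L.

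**Figure D5:**
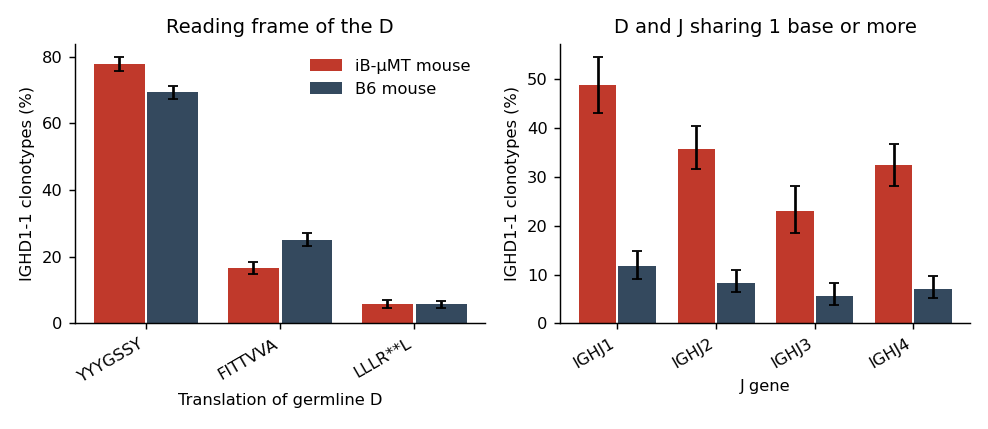
Share of IGHD1-1 clonotypes (%) by the frame in which the D gene is read (left) and, for each J gene, with at least 1 base that fits both the re-read D and the J (right), with 95% Wilson intervals, 1 library per mouse. YYYGSSY stands at 77.7% and 69.2%, and the overlap is higher in the iB-μMT repertoire with each of the 4 J genes.

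CDR3 of IGHD1-1 clonotypes had close mean lengths in both mice, 15.3 ± 2.18 amino acids in the iB-μMT repertoire and 15.3 ± 2.47 in the B6 repertoire, with an interval of the difference from -0.15 to 0.16. This was the longest mean of the 13 D genes in both mice. With the pool of other D genes the means were 13.5 and 13.9 amino acids, and the difference of IGHD1-1 exceeded theirs by 0.38 (0.20 to 0.56). The pool differed in makeup between the mice. IGHD4-1, with means of 12.5 and 12.8, gave 1272 of its 5278 clonotypes (iB-μMT) and 581 of 3918 (B6). Among single D genes, IGHD5-5 (0.25), IGHD5-1 (0.11) and IGHD3-1 (0.03) were not shorter in the iB-μMT repertoire either. The remaining D genes were shorter there, with differences from -0.77 to -0.09. Tyrosines numbered 3.38 and 2.82 per CDR3 with IGHD1-1, against 2.61 and 2.41 with other D genes. Glycines and serines together numbered 2.73 and 2.65 with IGHD1-1, against 1.37 and 1.68.

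The CDR3 motifs were the runs of 5 residues of the translated germline D. YYGSS was found in 44.0% of IGHD1-1 clonotypes in the iB-μMT repertoire and 29.1% in the B6 repertoire, a difference of 14.9 points (11.7 to 18.1). YGSSY, which needs the last codon of D or bases of J that fit it, was found in 38.7% and 19.3%, a difference of 19.4 points (16.4 to 22.4). YYYGS, at the 5′ side, was found in 17.8% and 12.1%. The motifs of the hydrophobic frame were rarer and near each other between the mice, with intervals of the difference that included 0. ITTVV stood at 5.30% and 6.16%, TTVVA at 6.36% and 6.85%, and FITTV at 1.26% and 1.23%. With other D genes YYGSS was found in 0.398% and 0.536% of clonotypes.

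Among IGHD1-1 clonotypes, the same CDR3 protein sequence arose more than once within a library more often in the iB-μMT repertoire. Repeated sequences were counted for IGHD1-1 only. IGHD1-1 clonotypes whose amino acid CDR3 was shared with another IGHD1-1 clonotype of the same library numbered 98 (6.49%, 5.36 to 7.85) in the iB-μMT repertoire and 22 (1.08%, 0.72 to 1.64) in the B6 repertoire. The CDR3 protein found most often in the iB-μMT repertoire, with YYGSS joined to IGHJ1, was present in 4 clonotypes with 4 V genes there and in 0 of the B6 repertoire. Each CDR3 nucleotide sequence occurs once in the tables (7794 and 6781 clonotypes), so the same CDR3 with different V genes would count once. Between the mice, 36 amino acid sequences of CDR3 were shared, in 43 and 38 clonotypes. Inserted nucleotides in these averaged 3.56 and 4.11, against 4.44 and 6.50 in the remaining IGHD1-1 clonotypes.

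The largest IGHD1-1 clonotypes show these joins in full, with the germline run of D in capitals. In the iB-μMT repertoire the top 3 all used IGHJ4, and in the B6 repertoire they used IGHJ2, IGHJ1 and IGHJ1.
iB-μMT 1, IGHV1-53: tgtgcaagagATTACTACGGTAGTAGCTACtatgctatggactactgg
iB-μMT 2, IGHV2-2: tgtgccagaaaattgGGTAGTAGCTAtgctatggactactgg
iB-μMT 3, IGHV9-3: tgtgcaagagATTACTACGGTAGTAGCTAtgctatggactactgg
B6 1, IGHV1-49: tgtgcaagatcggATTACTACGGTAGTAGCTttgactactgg
B6 2, IGHV1-52: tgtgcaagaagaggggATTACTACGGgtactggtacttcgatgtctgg
B6 3, IGHV8-8: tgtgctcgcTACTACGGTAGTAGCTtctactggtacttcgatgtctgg
The first 3 had 772, 769 and 708 reads, and the last 3 had 1558, 1132 and 1063. The largest was 0.085% of heavy chain reads in the iB-μMT repertoire and 0.113% in the B6 repertoire. The whole D as re-read, with no inserted nucleotide as deposited, was found in 1 clonotype of the iB-μMT repertoire (IGHV8-8, 31 reads). It was found in 2 of the B6 repertoire (IGHV1-76, 160 reads, and IGHV15-2, 2 reads). The deposited D covered 13, 14 and 14 bases in these clonotypes, which are shown as the joins nearest to germline.
iB-μMT, IGHV8-8 and IGHJ1: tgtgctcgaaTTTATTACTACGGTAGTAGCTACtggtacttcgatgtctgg
B6, IGHV1-76 and IGHJ1: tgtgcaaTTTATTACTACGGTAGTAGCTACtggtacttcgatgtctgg
B6, IGHV15-2 and IGHJ2: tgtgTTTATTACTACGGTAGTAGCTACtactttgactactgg

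Clonotypes with the same CDR3 nucleotides, V and J in both mice numbered 34 in the heavy chain, of which 14 were IGHD1-1 clonotypes. Of these 14, 10 had a single read in the iB-μMT repertoire, and 9 of the 10 had 107 to 607 reads in the B6 repertoire. Whether reads passed between the libraries was not tested. The 14 are among the 36 amino acid sequences found in both mice. Only 3 had at least 50 reads in both mice, and they are shown because they were made with 0 or 1 inserted nucleotide as deposited, with all 3 joined by the IGHJ1 join or the first IGHJ2 join given above.
IGHV1-26 and IGHJ1: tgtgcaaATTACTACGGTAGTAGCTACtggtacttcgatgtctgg
IGHV5-6 and IGHJ2: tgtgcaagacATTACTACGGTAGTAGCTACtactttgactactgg
IGHV8-12 and IGHJ1: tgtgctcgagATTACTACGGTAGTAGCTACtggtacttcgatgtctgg
The first had 249 reads in the iB-μMT repertoire and 178 in the B6 repertoire, the second 137 and 64, and the third 103 and 409. Each kept 20 of the 23 bases of IGHD1-1 on the re-read ends.

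The assignment to IGHD1-1 was firmer for some clonotypes than for others. The shortest alignment of D was 5 bases, with 42 and 51 IGHD1-1 clonotypes at that length. Another D gene had the same best score in 107 (7.09%) and 158 (7.78%) of the IGHD1-1 clonotypes. A run of at least 10 germline bases of IGHD1-1, an alternative chosen after seeing the data, was present in 1508 of all clonotypes (19.3%) in the iB-μMT repertoire and in 1792 (26.4%) in the B6 repertoire. Of the IGHD1-1 clonotypes, 88.5% and 81.2% held such a run, as did 125 and 107 clonotypes given to other D genes and 47 and 36 without a D gene.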

How the data were processed

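Total RNA of the sorted cells was converted to cDNA by 5′ RACE and sequenced on an Illumina MiSeq. The authors assembled clonotypes with MiXCR, and the submitters' processing notes name bcl2fastq and the genome build mm10. The tables that the authors deposited list, per clonotype, a read count, the same value as a fraction of all reads and a quality score (the lowest base quality in CDR3), with gene hits and segment positions. The score and the fraction were not used to filter. Depth was 909806 reads (iB-μMT mouse) and 1383617 reads (B6 mouse), and no molecular identifiers are described, so each clonotype was counted once. A count of 3 reads corresponds to 0.00033% and 0.000217% of the reads, and no floor was applied. The kappa and lambda chain tables hold no D gene and were not used.

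Inserted nucleotides and D ends were taken from the deposited segment positions. D ends were also re-read by exact extension against germline IGHD1-1. Shares carry 95% Wilson intervals, differences of shares Newcombe intervals, and differences of means normal-approximation intervals over clonotypes. These cover counting error only and were not adjusted for the 32 shares and 6 means compared. V and D genes were called past 2-fold (or below 0.5-fold), V genes if both libraries together held at least 20 clonotypes. All 16 D gene names found matched the RefSeq gene table (GRCm38.p6), from which the position of IGHD1-1 was taken. Named V genes were the 5 most frequent in each library and the 3 whose shares differed most each way. Named D genes had at least 20 clonotypes in each library. Named clonotypes were the 3 with the most reads, those with the whole D and no insertion, and those in both libraries, and repeated CDR3 proteins were added after their values were seen. The gene, the lists and the rules were chosen with earlier results of these data known. The re-reader was tested on simulated joins for finding the germline match. Recovery of the true trimming and the D-J overlap were not tested. The 2-fold rule was tested on simulated libraries with more clonotypes than IGHD1-1 had in either mouse. That test does not show how often calls from few clonotypes are wrong. Python 3.11.15, NumPy 2.4.6, pandas 2.3.3, SciPy 1.17.1 and statsmodels 0.14.6 were used.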

Additional observations from a re-analysis of the deposited data

How the results depend on the processing

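No paired analysis was possible because each group has 1 library, so no replicate could be left out or used as a block. A total of 23 results were computed again under 9 alternatives and 2 more that were added after seeing the data, 200 comparisons in all: untied best D hits, at least 10 nucleotides of D, at least 2 or 5 reads, merging of near-identical clonotypes, weighting by reads, productive clonotypes, equal read numbers, no clonotypes of both libraries, re-read D ends and germline runs. Of these, 193 stayed within their interval or within 1.5 times the count, 7 moved and 0 with an interval off 0 changed sign. The difference in the share of IGHD1-1 was -14.5 points over untied hits and -7.08 points for a germline run of at least 10 bases in any clonotype, against -10.6 points for the D hit over the same clonotypes. With at least 10 nucleotides of D, IGHJ2 differed by -3.87 points and 6 V genes in place of 12 were more than 2-fold higher. Weighted by reads, inserted nucleotides differed by -2.26 and the share without insertion by 6.37 points. D nucleotides left differed by 2.00 on re-read ends in place of 0.53. The cause of these shifts was not tested. Over 9 alternatives, the difference in D-J overlap was 25.3 to 30.2 points and that in whole 3′ ends 15.5 to 18.3 points. Depth limits rare clonotypes, and 1 mouse per group leaves the spread between mice unknown.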
